A study of Mus musculus with 20 samples.

Results

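Subiculum pyramidal cells of the mouse that project to the nucleus accumbens (labelled NA) or to the prefrontal cortex (PFC) were compared with those that project to the retrosplenial cortex (RSC) or to the target labelled VHN. The sides were set by the label of each library and by no measured value. They hold 6 libraries each, 3 replicates of each of 4 populations, which makes 12 of the 20 samples of the series. The design text calls the 3 libraries of a population biological replicates. The labels do not spell out the target names. NA, PFC and RSC are read here as their customary short forms, and VHN is kept as written. Fluorescent neurons were picked by hand from slices of microdissected tissue, so each library pools cells of 1 projection class. Strain, age, sex, tracer and the number of cells or animals per library are not given in the sources used here. A lower value in such a pool cannot tell fewer expressing cells from less RNA per cell.

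The subiculum sends the main output of the hippocampus to cortical and subcortical targets. A long-range pyramidal cell has to fuel its membrane currents and its axon by mitochondrial respiration, to build protein on ribosomes, to move cargo along microtubules and to release transmitter from vesicles. Kinases, phosphatases and small GTPases tune these processes, and much of this machinery comes in gene families whose members differ between types of neuron. The comparison asked here was which of these working parts of the cell differed between the 2 sides, outside the families of ion channels, receptors, adhesion, guidance and matrix genes.

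Levels are given in CPM, fragment counts relative to the size of the library, which TMM adjusts for composition. A gene was called higher or lower in NA and PFC when its edgeR quasi-likelihood test, with the 4 populations weighted equally, had a Benjamini-Hochberg adjusted p under 0.05. Of 13916 genes tested, 1055 were called higher (7.58%) and 927 lower (6.66%), 14.2% together. The libraries of the sides did not overlap for 7.52% of the tested genes, and 933 genes (6.7%) were both called and free of overlap. By the same test, 61 genes differed between NA and PFC (0.438%). The log2 fold changes average the log levels of the populations, and folds between sides are ratios of mean CPM, so the 2 can differ. The 3 libraries of a population may share a preparation that the labels do not record, and the p-values measure the spread between these libraries. NA replicate 2 and PFC replicate 3 stood apart from the other libraries on principal components 2 and 3 respectively.

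Pyramidal identity was checked first. The vesicular glutamate transporter gene Slc17a7 was present in all 12 libraries. It was at 718 to 1024 CPM in NA and PFC libraries against 513 to 643 CPM in the others. The marker Slc17a6 went the other way, at 37.9 to 174 against 290 to 537 CPM (log2 fold change −2.01, adjusted p = 7.95e-06). Neurod6 was at 278 to 542 against 59.9 to 177 CPM, and Tbr1 at 119 to 494 against 36.7 to 93.5 CPM. Of the 10 pyramidal markers tested, 4 passed as higher on the NA/PFC side, 1 as lower, and 5 were not called. Summed CA1 pyramidal markers were at 1794 to 2924 CPM in NA and PFC libraries against 917 to 1275 CPM in the others. Of 9 CA1 markers tested, 4 were called higher (44.4%) and 1 lower (11.1%). The part of CA1-type transcripts in the results below was not tested. The interneuron gene Gad2 encodes a GABA-synthesizing enzyme. It was at 43.3, 177 and 91.9 CPM in RSC replicate 2, RSC replicate 3 and VHN replicate 3. In the other 9 libraries Gad2 was at no more than 7.4 CPM. Of 9 interneuron markers tested, 5 were called lower in NA and PFC, namely Lamp5, Pvalb, Gad2, Npy and Gad1. The summed level of 13 detected interneuron markers, to which Cck added 238 to 1008 CPM, was 264 to 1019 CPM in NA and PFC libraries against 533 to 864 CPM in the others, and Vip was at 0 throughout. List counts are therefore also given without these 3 libraries, called the 3 Gad2-rich libraries. That smaller set called 2.71% of 16007 genes higher and 1.96% lower. Of the 13905 of these that are among the genes tested over all libraries, and from which list members come, 3.11% were called higher and 2.23% lower, and its list counts are read against those shares. Fits that left out 1 library called 5.69% to 7.82% of genes higher and 4.94% to 7.69% lower, and DESeq2 called 10.9% and 8.8%. Where one of these fits, or a correction for transcript length or GC content described below, moved a count of more than 3 genes of a list by over 1.5 times, its value is given beside that list.

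Transcripts of glia and vessels were mostly low, and some were uneven between sides or libraries. The summed level of 10 astrocyte markers was 292 to 685 CPM in NA and PFC libraries against 72.5 to 406 CPM in the others. Slc1a2, a glutamate transporter gene, was at 279 to 585 CPM against 61.1 to 387 CPM. It was the 1 member of 7 tested that was called (higher in NA and PFC). The median log2 fold change of these 7 was 1.1, and 85.7% of them were above 0, against 50.6% of all tested genes. Sox9 was at 60.8 CPM in NA replicate 2 and at no more than 3.62 CPM in RSC and VHN. S100b was at 3.33 to 30.6 against 0 to 41.3 CPM, and the defining astrocyte gene Gfap did not exceed 0.0621 CPM. Summed oligodendrocyte markers were at 47 to 89.4 CPM against 47.1 to 175 CPM. Endothelial and mural markers were at 24 to 91.8 CPM against 2.08 to 23 CPM, with Rgs5 at 23.8 to 91.8 and 1.31 to 21.5 CPM, and the endothelial genes Cldn5 and Cdh5 were at 0 in every library. The part of these transcripts in the results below was not tested.

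The side difference was spread unevenly over 51 functional lists. The nuclear-encoded genes of oxidative phosphorylation and of the cytosolic ribosome were called lower in NA and PFC far more often than the 6.66% of all tested genes. Lists of presynaptic release, Ras and Rap regulators, G proteins and phospholipid and sphingolipid enzymes were called higher more often than the 7.58% of all tested genes. In 17 lists both shares were above those of all genes, though in some by little. Motor genes, for example, were at 7.61% higher against 7.58%, and solute carriers at 6.98% lower against 6.66%. This count is therefore not read as a trait of these lists. Zinc-finger genes of the Zfp series were at the other end, with 10 of 352 called (2.84%), 8 higher and 2 lower. DESeq2 called 27 and 6 of them, the replicate block left 5 higher, and 3 to 5 were higher without PFC replicate 1, RSC replicate 2 or 3 or VHN replicate 2 or 3. The plot of called members by list sets these shares side by side.

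**Figure D1:**
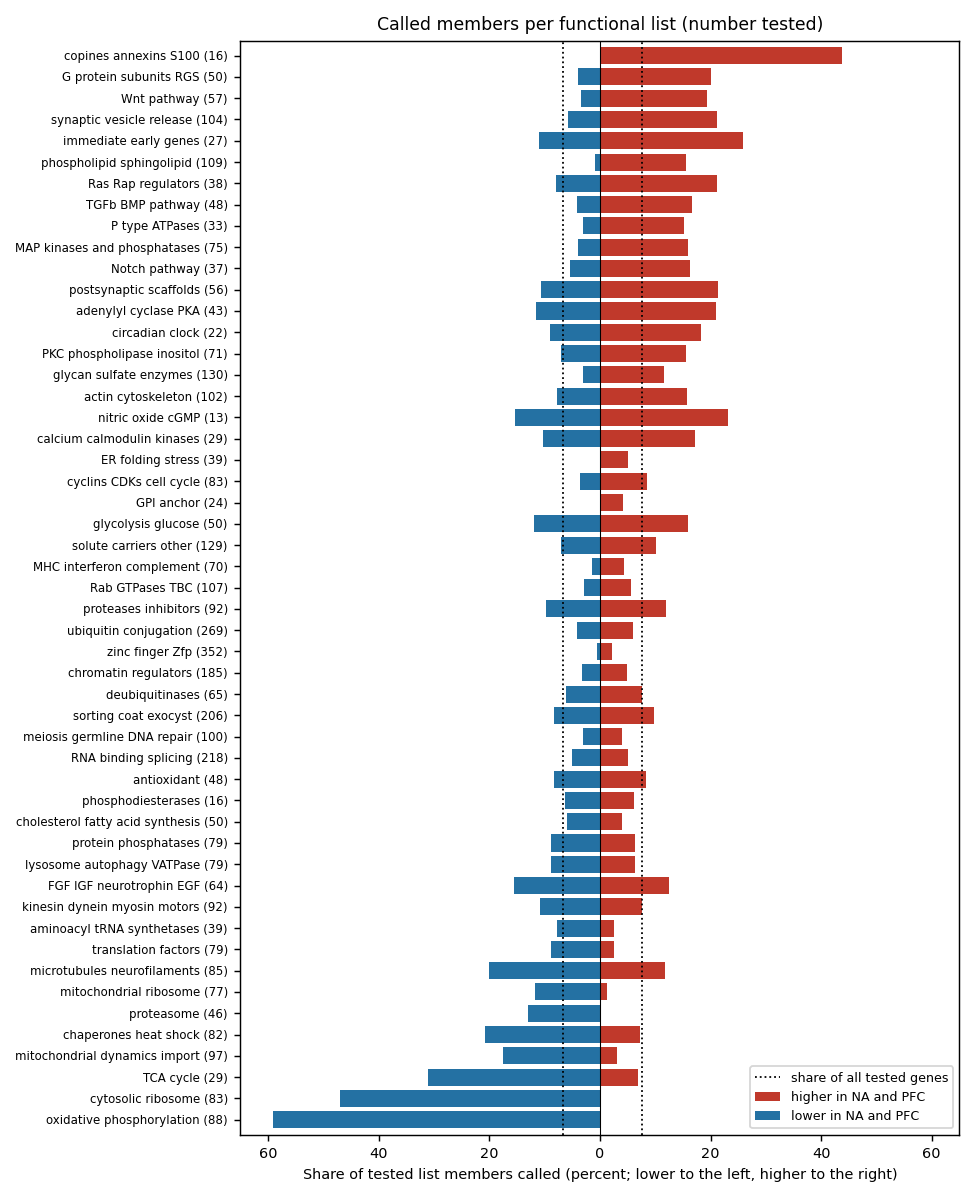
Share of tested members called higher (red, to the right) or lower (blue, to the left) in NA and PFC, in percent, for 51 functional lists with the number tested in brackets. Dotted lines mark the shares of all tested genes, 7.58% and 6.66%, and oxidative phosphorylation (59.1%) and the cytosolic ribosome (47%) reach farthest to the left.

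Oxidative phosphorylation is carried out in the inner mitochondrial membrane by the respiratory complexes, which pump protons, and by ATP synthase, which uses the proton gradient to make ATP. Of 88 tested nuclear genes of this machinery, 52 were called lower in NA and PFC (59.1%) and 0 higher, with a median log2 fold change of −0.84 against 0.01 over all tested genes. At an unadjusted p under 0.05 edgeR put 67 lower and 0 higher, DESeq2 called 57 lower and 0 higher, and limma-voom 55 and 0. The libraries of the sides did not overlap for 36 of the 52, and for 484 of all 927 genes called lower. Without the 3 Gad2-rich libraries, 25 were called lower (median −0.86).

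The summed level of the 95 detected members showed the difference in each library. It was 10929, 10969 and 9362 CPM in NA replicates 1 to 3, and 9661, 9478 and 10022 CPM in those of PFC. It was 17417, 16862 and 16061 CPM in RSC and 15311, 15217 and 14331 CPM in VHN. Every RSC and VHN library was above every NA and PFC library, with side means of 10070 ± 717 and 15866 ± 1142 CPM (SD, n = 6 each). The 37 mitochondrially encoded rows held 0 fragments, so the mitochondrial genome's own subunits could not be compared.

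Members called lower were found in each complex of the chain. Complex I, the NADH dehydrogenase, had 23 of 37 tested subunits called lower (median −0.88), complex II 2 of 4, complex III 5 of 9 (median −0.72), complex IV, the cytochrome c oxidase, 9 of 12 (median −0.91) and ATP synthase 10 of 17 (median −0.84). Of the 88 genes, 6 had a log2 fold change above 0. None of these passed the test, among them Cox8a (0.28, adjusted p = 0.257) and Ndufc1 (0.50, adjusted p = 0.21), named here after their values were seen. Without the 3 Gad2-rich libraries, fewer members were called in each of complexes I to IV and ATP synthase, while their medians lay between −0.67 and −0.97.

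Uqcrh, a hinge subunit of complex III, was at 67.1, 112 and 87.3 CPM in NA and at 80, 76.4 and 76.6 CPM in PFC. In RSC it was at 308, 234 and 225 CPM and in VHN at 249, 182 and 232 CPM. Its highest NA or PFC library lay below its lowest RSC or VHN library (2.86-fold between side means, log2 fold change −1.52, SE 0.171, adjusted p = 2.14e-05).

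Atp5e, the epsilon subunit of ATP synthase, was the other member named by rank. It was at 37.6 to 62.6 CPM in the 6 NA and PFC libraries, with 57.9, 37.6 and 53 CPM in NA and 53.9, 58.2 and 62.6 CPM in PFC. It was at 151, 174 and 152 CPM in RSC and 149, 178 and 147 CPM in VHN. The sides were again fully separate (2.94-fold, log2 fold change −1.56, SE 0.177, adjusted p = 2.28e-05).

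Promoters of 72 of the 88 genes were matched by symbol in a RefSeq table (build GRCm38.p6), each read as the 250 bases before the gene's start. NRF1, nuclear respiratory factor 1, is a transcription factor known for its binding to promoters of respiratory genes, and its palindromic consensus, the letters in capitals in the sequences shown here, was searched on both strands. It was 1 of 5 motifs searched, the others being those of ETS, YY1, ERR and CRE factors. The NRF1 motif was in 5 of these 72 promoters (6.94%), in 1.89% of 10124 promoters of tested genes and in 0.877% of all 27025 in the table. It was in 3 of 44 promoters of members called lower (6.82%) and in 2 of 28 of members not called (7.14%). Of promoters of all genes called lower, 12 of 703 held it (1.71%). The 3 called members that hold it are printed as examples of the motif, and a link between motif and level was not tested. The windows lie at chr5:108434400-108434649 (minus strand, Atp5k), chr5:115348959-115349208 (minus strand, Cox6a1) and chr17:56717512-56717761 (plus strand, Ndufa11), and capitals mark the motif.
Atp5k: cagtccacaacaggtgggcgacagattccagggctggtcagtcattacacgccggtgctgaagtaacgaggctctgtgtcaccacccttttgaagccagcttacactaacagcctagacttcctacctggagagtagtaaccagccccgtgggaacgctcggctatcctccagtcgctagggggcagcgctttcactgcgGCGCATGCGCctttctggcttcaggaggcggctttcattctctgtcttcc
Cox6a1: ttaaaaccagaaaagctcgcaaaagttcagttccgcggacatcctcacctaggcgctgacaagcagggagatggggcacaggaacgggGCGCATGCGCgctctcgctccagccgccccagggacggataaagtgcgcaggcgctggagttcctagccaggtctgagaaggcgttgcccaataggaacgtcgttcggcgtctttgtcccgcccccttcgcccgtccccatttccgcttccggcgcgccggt
Ndufa11: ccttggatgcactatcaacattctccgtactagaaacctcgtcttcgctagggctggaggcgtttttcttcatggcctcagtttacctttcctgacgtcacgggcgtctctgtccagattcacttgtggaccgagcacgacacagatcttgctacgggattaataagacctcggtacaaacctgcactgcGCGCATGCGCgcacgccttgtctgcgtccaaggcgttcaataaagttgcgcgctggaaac

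The motif begins 50 bases before the start in Atp5k, 162 in Cox6a1 and 60 in Ndufa11. The 3 genes differed in how far they fell. Atp5k, a small membrane subunit of ATP synthase, was at 33.8 ± 13.5 CPM on the NA/PFC side against 139 ± 22.1 CPM on the other (SD, n = 6 each; log2 fold change −2.05, adjusted p = 7.34e-05), with no overlap of libraries. Cox6a1, a complex IV subunit, was at 193 ± 55.1 against 290 ± 26.7 CPM (−0.60, adjusted p = 0.0249). Ndufa11, of complex I, was at 51.9 ± 36.5 against 111 ± 16.6 CPM (−1.11, adjusted p = 0.0291), and its PFC replicate 3, at 124 CPM, lay among the RSC and VHN libraries. Cox6a1 and Ndufa11 did not pass without the 3 Gad2-rich libraries (adjusted p = 0.194 and 0.181).

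Cytosolic ribosomes translate nuclear messages, and each is built from a large and a small subunit. Of 83 tested ribosomal protein genes, 39 were called lower in NA and PFC (47%) and 0 higher, with a median log2 fold change of −0.76. At an unadjusted p under 0.05 there were 59 lower and 1 higher. DESeq2 called 46 lower and limma-voom 45, each with 0 higher. The large subunit had 27 of 50 called lower and the small subunit 12 of 33, with medians of −0.76 and −0.74. The count was 17 lower without the 3 Gad2-rich libraries.

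Summed over 86 detected ribosomal protein genes, the level was 4086, 5272 and 4176 CPM in NA and 5153, 5481 and 4956 CPM in PFC. It was 8347, 7844 and 7699 CPM in RSC and 7352, 8556 and 8398 CPM in VHN. The lowest RSC or VHN sum was above the highest NA or PFC sum. Ribosomal protein genes have many processed copies in the genome, and how reads shared between copies were assigned is not given in the sources used here, so single values in this family are uncertain.

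Rpl35, of the large subunit, was at 17.5 ± 7.1 CPM on the NA/PFC side against 63.8 ± 4.7 CPM on the other (SD, n = 6 each; log2 fold change −1.93, adjusted p = 0.000214). Rps15, of the small subunit, was at 53.6, 18.2 and 54.5 CPM in NA and 142, 122 and 122 CPM in PFC, against 178 to 270 CPM in RSC and VHN. Rps15 was thus lower in NA than in PFC as well (log2 fold change NA over PFC −1.61, adjusted p = 0.0438). Of the 5 motifs, the NRF1 and ERR letters were in 0 of 61 ribosomal promoters matched. The ETS letters CCGGAAGT were in 8 (13.1%, against 6.6% of promoters of tested genes), the CRE letters TGACGTCA in 6 (9.84% against 3.06%) and the YY1 letters AAGATGGC in 4 (6.56% against 2.5%), each on either strand. The 72 promoters of oxidative phosphorylation held these in 3, 5 and 1 cases and the ERR letters in 1.

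**Figure D2:**
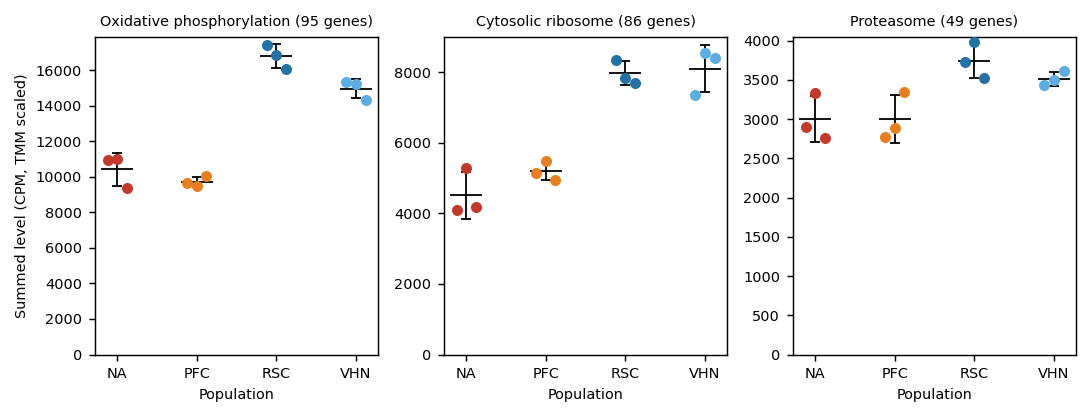
Summed level in CPM of the detected genes of oxidative phosphorylation (95), the cytosolic ribosome (86) and the proteasome (49), with 1 point per library and mean ± SD (n = 3) per population. The NA and PFC libraries lie at or below 10969 CPM for oxidative phosphorylation and 5481 CPM for the ribosome, and the RSC and VHN libraries at or above 14331 and 7352 CPM.

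Both groups are made of short transcripts, with median lengths of 963 and 914 bases against 3169 over all tested genes with a length. Across the genome, length moved with the side difference. Genes were split by length into 4 classes of like size. In the shortest class (up to 1988 bases), outside both lists, 7.69% of genes were called lower and 3.09% higher, whereas 13.6% of the longest class (over 4715 bases) were called higher and 6.33% lower. Within that shortest class, 46 of 76 genes of oxidative phosphorylation were called lower (60.5%). Those 76 genes also lay at a higher level, with a summary value of 93.6 CPM against 8.5 CPM for that class outside both lists. By the same summary, ribosomal genes were at 70.1 CPM and all tested genes at 19 CPM. Differences are easier to call at higher levels, and the part of level in these shares was not tested. After a correction of each library for transcript length, added after these values were seen, 27 genes of oxidative phosphorylation were called lower and 2 higher (median −0.43), and 14 ribosomal genes lower and 1 higher (median −0.30). After a correction for GC content, also added later, 41 and 28 were called lower. Over all genes, the length correction called 7.39% higher and 5.09% lower, and the GC correction 8.32% and 5.17%. The median over all genes was 0.09 under both corrections. The part of transcript length in these counts was not tested beyond this correction.

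**Figure D3:**
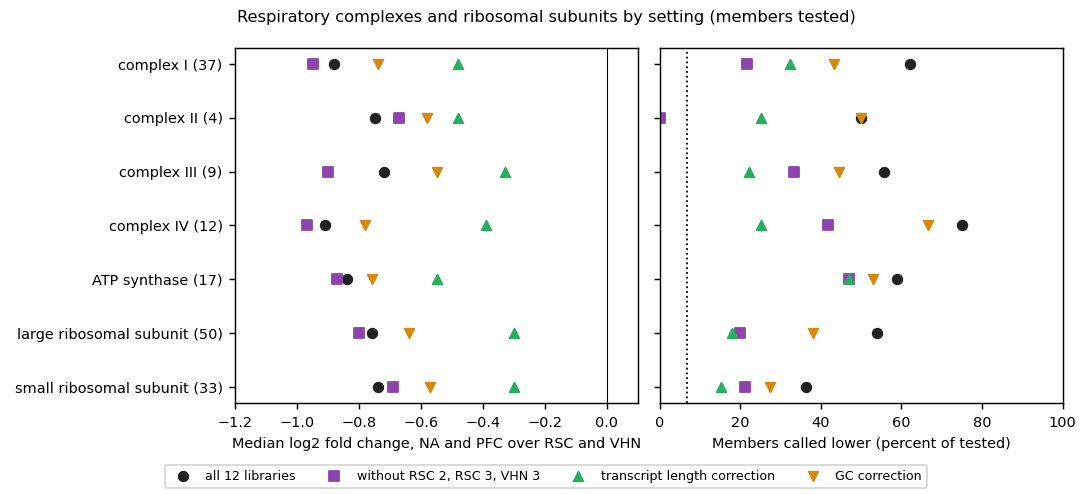
Median log2 fold change (left) and percent of tested members called lower (right) for each respiratory complex and ribosomal subunit, under 4 settings; the dotted line marks the 6.66% of all tested genes called lower. Every median lies below 0 under each of the 4 settings, and those after the length correction (−0.30 to −0.55) lie nearest to 0.

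Side by side, the single pairs of populations showed the same sign. The median log2 fold change of oxidative phosphorylation was −0.92 for NA over RSC, −0.78 for NA over VHN, −0.88 for PFC over RSC and −0.68 for PFC over VHN, pairs that share libraries. It was −0.08 for NA over PFC and 0.18 for RSC over VHN. edgeR called 0 members within a side, where it called 0.438% of all genes for NA against PFC and 0% for RSC against VHN, so nothing is read from these counts. At an unadjusted p under 0.05 there were 18 of 88 members (20.5%, against 13.4% of all genes) for NA against PFC and 0 (against 5.18%) for RSC against VHN. DESeq2 and limma-voom were not run on these pairs.

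The citric acid cycle list had 9 of 29 called lower and 2 higher, with a median log2 fold change of −0.01. The lower count was 4 without RSC replicate 1, RSC replicate 2 or VHN replicate 1 and 5 without NA replicate 1 or PFC replicate 3. It included Mdh1, cytosolic malate dehydrogenase of the malate shuttle, at 526 ± 69.1 CPM on the NA/PFC side against 1037 ± 167 CPM on the other (SD, n = 6 each; log2 fold change −0.96, adjusted p = 2.33e-05). Mpc2, a subunit of the mitochondrial pyruvate carrier, was lower as well (−1.49, adjusted p = 0.000179). The mitochondrial malic enzyme gene Me3 was higher (1.29, adjusted p = 0.0204). Without the 3 Gad2-rich libraries the list had 2 lower and 1 higher, after the length correction 3 and 2, and after the GC correction 4 lower.

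Among genes of mitochondrial dynamics, import and carriers, 17 of 97 were called lower and 3 higher, and 5 lower without the 3 Gad2-rich libraries. The lower count was 9 without VHN replicate 3 and 11 without RSC replicate 3 or VHN replicate 1. It was 10, beside 5 higher, after the length correction and 9 after the GC correction. Micu3, a regulator of the mitochondrial calcium uniporter found in neurons, was at 151 ± 28.4 CPM against 349 ± 43 CPM (SD, n = 6 each; log2 fold change −1.2, adjusted p = 4.95e-05). Slc25a46, which acts in mitochondrial fission, was lower too (−1.10, adjusted p = 0.000229). The mitochondrial glutamate carrier gene Slc25a22 was higher (0.87, adjusted p = 0.0211), but not without the 3 Gad2-rich libraries (adjusted p = 0.177). Mitochondrial ribosomal proteins had 9 of 77 called lower and 1 higher (median −0.49), and DESeq2 called 14 and 2. After the length correction 3 were lower and 3 higher (median −0.22), and without NA replicate 2 and PFC replicate 3 there were 14 lower. None was called by edgeR without those 3 libraries; over all libraries, 22 were lower and 2 higher at an unadjusted p under 0.05.

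Glycolysis, the cytosolic breakdown of glucose, split by step. Of 50 tested genes, 8 were called higher and 6 lower (4 and 3 without the 3 Gad2-rich libraries). Each of the 6 lower genes had no overlap between sides, which held for 484 of all 927 genes called lower. Gapdh, which oxidizes the triose phosphates, was at 2754, 2798 and 1619 CPM in NA and 1818, 2377 and 1888 CPM in PFC. It was at 1208, 1140 and 1107 CPM in RSC and 1498, 1246 and 1156 CPM in VHN. Its lowest NA or PFC library was thus above its highest RSC or VHN library (1.8-fold, log2 fold change 0.85, adjusted p = 0.000323). Gapdh has many pseudogenes, so its count carries the same doubt as the ribosomal genes.

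Pgk1, the enzyme of the next step, went the other way. It was at 348, 292 and 331 CPM in NA, 177, 201 and 228 CPM in PFC, 622, 677 and 581 CPM in RSC and 560, 492 and 502 CPM in VHN. Its sides did not overlap (log2 fold change −1.15, SE 0.115, adjusted p = 7.95e-06). Pgam1, which follows Pgk1 in the pathway and was named after its values were seen, was at 468 ± 131 against 1032 ± 158 CPM (SD, n = 6 each; −1.15, adjusted p = 2.63e-05).

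Lactate dehydrogenase, which interconverts pyruvate and lactate, is built from subunits of separate genes. Ldhb, the form typical of oxidative tissue, was at 199 ± 55.3 CPM on the NA/PFC side against 652 ± 131 CPM on the other (SD, n = 6 each; 3.27-fold, log2 fold change −1.72, adjusted p = 4.59e-06). Ldha, the form typical of glycolytic tissue, was at 401 ± 91.5 against 280 ± 26.7 CPM (0.51, adjusted p = 0.0284). Phosphofructokinase genes split likewise, with Pfkl higher (1.89) and Pfkp (−0.73) and Pfkm (−0.59) lower. Ldha, Pfkp and Pfkm, like Pfkl chosen here after their values were seen, did not pass without the 3 Gad2-rich libraries (adjusted p = 0.251, 0.236 and 0.286), nor did Pfkl (0.0686), whereas Ldhb did (0.000262). Slc16a14, a member of the monocarboxylate transporter family, was higher in NA and PFC (39.3 ± 8.1 against 6.67 ± 2.9 CPM; 2.58, adjusted p = 0.000406).

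Ckb, the brain creatine kinase that buffers ATP in the cytosol, was among the genes of lowest p. It was at 469, 641 and 462 CPM in NA and 352, 326 and 407 CPM in PFC. In RSC it was at 1184, 990 and 975 CPM and in VHN at 968, 1054 and 929 CPM. All RSC and VHN libraries were above all NA and PFC libraries (2.3-fold, log2 fold change −1.22, SE 0.116, adjusted p = 4.97e-06). Among antioxidant genes the counts were even, 4 higher and 4 lower of 48, or 1 and 4 without the 3 Gad2-rich libraries. The lower count was 7 without NA replicate 3 and by DESeq2, and 2 after the length correction. Prdx2, a peroxiredoxin that removes peroxide, and the metallothionein gene Mt1 were lower (−1.11 and −1.54, adjusted p = 2.18e-05 and 0.000456). Cat, the catalase gene, was higher (5.37, adjusted p = 0.000573) with NA replicate 2 at 157 CPM and the other NA and PFC libraries at 4.91 to 24.3 CPM.

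Protein folding and breakdown were mixed. Chaperone and heat shock genes had 17 of 82 called lower and 6 higher (20.7% and 7.32%), and 4 lower and 1 higher without the 3 Gad2-rich libraries. After the length correction 11 were lower and 6 higher, and after the GC correction 9 and 7. Hspa4, a nucleotide exchange partner of Hsp70, was at 424 ± 144 against 812 ± 123 CPM (SD, n = 6 each; log2 fold change −1.0, adjusted p = 2.3e-05), and was higher in NA than in PFC (0.89, adjusted p = 0.0185). Cct7, a subunit of the TRiC chaperonin that folds actin and tubulin, was lower (−1.37, adjusted p = 3.5e-05). Dnajb14 and Bag6, both cochaperones, were higher (0.62 and 0.86, adjusted p = 0.00324 and 0.0064).

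The proteasome degrades ubiquitin-tagged proteins. Its genes had 6 of 46 called lower (13%) and 0 higher by edgeR (11 and 0 at an unadjusted p under 0.05, 8 and 0 by DESeq2 and by limma-voom). Psmc1, an ATPase subunit of the regulatory cap, was at 66 ± 10.2 against 141 ± 19.6 CPM (SD, n = 6 each; log2 fold change −1.10, adjusted p = 0.000579), but adjusted p was 0.084 without the 3 Gad2-rich libraries. The count of the list was 1 without those libraries, 1 after the length correction and 2 after the GC correction. Enzymes that attach ubiquitin were near the background, with 16 higher and 11 lower of 269, or 7 and 4 without the 3 Gad2-rich libraries. DESeq2 called 28 higher, and 7 were lower without RSC replicate 1 or VHN replicate 1. Nedd4l, a ubiquitin ligase that acts on membrane channels and transporters, was higher (586 ± 61.9 against 250 ± 40.5 CPM; 1.23, adjusted p = 1.65e-05), as was Cyld, a deubiquitinase of the synapse (1.16, adjusted p = 0.000155).

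The calcium- and lipid-linked kinases changed by family member. Of 71 genes of protein kinase C, phospholipase C and inositol signalling, 11 were called higher and 5 lower, and 5 and 1 without the 3 Gad2-rich libraries. The lower count was 3 without RSC replicate 3, VHN replicate 1 or VHN replicate 3 and 8 by limma-voom. Prkca, the alpha form of protein kinase C, was at 794, 777 and 843 CPM in NA and 567, 769 and 797 CPM in PFC. It was at 176, 211 and 346 CPM in RSC and 116, 193 and 204 CPM in VHN. The sides were separate (3.65-fold, log2 fold change 1.89, SE 0.18, adjusted p = 5.05e-06).

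Dgkb, a diacylglycerol kinase that ends the lipid signal by which such kinases are activated, was also higher (471 ± 101 against 175 ± 37.7 CPM, SD, n = 6 each; 1.42, adjusted p = 9.35e-06). Plcb4, a phospholipase C that makes that signal downstream of Gq, was lower. It was at 56.5, 71.1 and 49.6 CPM in NA, 21.8, 29.2 and 43 CPM in PFC, 233, 302 and 384 CPM in RSC and 186, 293 and 205 CPM in VHN. The lowest RSC or VHN library exceeded the highest NA or PFC library (5.9-fold, log2 fold change −2.62, SE 0.214, adjusted p = 1.9e-06). Gnaq, the Gq alpha subunit that activates phospholipase C beta, was higher (680 ± 119 against 400 ± 67.3 CPM; 0.76, adjusted p = 0.000589).

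G-protein subunits and their RGS regulators had 10 of 50 called higher (20%) and 2 lower. The higher count was 5 without VHN replicate 1 or 2 and 6 without RSC replicate 1. DESeq2 called 4 lower. Gnai1, an inhibitory alpha subunit, was lower (576 ± 79.9 against 875 ± 89.4 CPM, SD, n = 6 each; log2 fold change −0.61, adjusted p = 0.000676). Gng2, a gamma subunit, was higher (1.01, adjusted p = 0.0024). One of the 10 higher members, Rgs5, is also in the vessel marker list above. Without the 3 Gad2-rich libraries 3 members were called higher, and Gnai1 was at adjusted p = 0.0621.

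Calcium-calmodulin signalling likewise held both directions, 5 higher and 3 lower of 29, and 4 and 2 without the 3 Gad2-rich libraries. Ppp3r1, the regulatory subunit of the phosphatase calcineurin, was at 1928, 1898 and 1826 CPM in NA and 1499, 1943 and 2011 CPM in PFC, against 769 to 981 CPM in RSC and VHN. The sides were separate, and their means differed 2.07-fold (log2 fold change 1.05, SE 0.0987, adjusted p = 4.59e-06). Camk2g, the gamma form of calcium-calmodulin kinase II, was lower at 74.5 ± 26.7 against 313 ± 85.8 CPM (SD, n = 6 each; −2.07, adjusted p = 1.71e-05). Rcan2, an inhibitor of calcineurin, was lower too (−2.56, adjusted p = 0.000827). The alpha form Camk2a, which marks forebrain excitatory neurons, was higher (0.72, adjusted p = 0.000546).

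Cyclic AMP signalling had 9 higher and 5 lower of 43, with 3 higher left in the count without the 3 Gad2-rich libraries. Leaving out RSC replicate 1 or 2 or VHN replicate 2 or 3 gave 5 higher, and leaving out PFC, RSC or VHN replicate 2 or 3 gave 3 lower. Akap5, which anchors protein kinase A and calcineurin at the postsynapse, was at 333 ± 71.2 against 105 ± 67.3 CPM (SD, n = 6 each; log2 fold change 1.67, adjusted p = 0.00108). Adcy9, an adenylyl cyclase, was higher (1.29, adjusted p = 0.00334) and Prkar1a, a regulatory subunit of protein kinase A, lower (−0.45, adjusted p = 0.0117). Adcy9 and Prkar1a did not pass without those 3 libraries (adjusted p = 0.0873 and 0.14). MAP kinases and their phosphatases had 12 higher and 3 lower of 75, with 4 higher without the 3 Gad2-rich libraries. The lower count was 1 without RSC replicate 2 or 3 or VHN replicate 1 and 5 by DESeq2. Mapk4, an atypical MAP kinase, was at 21.1 to 67.8 CPM on the NA/PFC side against 0 to 9.45 CPM on the other (5.06, adjusted p = 0.000105).

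Small GTPases and their partners switch actin assembly on and off. Rac1, a GTPase of actin remodelling, was at 542, 453 and 445 CPM in NA and 536, 661 and 512 CPM in PFC, against 324, 302 and 299 CPM in RSC and 273, 244 and 262 CPM in VHN. It was higher in each NA and PFC library than in any RSC or VHN library (log2 fold change 0.89, adjusted p = 8.14e-05). Dock4, an activator of Rac and Rap, was higher (1.35, adjusted p = 0.000145), and Wasf1, the WAVE protein that links Rac to branched actin, was higher (1.30, adjusted p = 5.28e-05).

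Pak1, a kinase effector of Rac, went the other way. It was at 973, 1122 and 924 CPM in NA, 727, 565 and 688 CPM in PFC, 2123, 1744 and 1699 CPM in RSC and 1404, 1434 and 1278 CPM in VHN. The sides were separate (1.94-fold, log2 fold change −0.97, SE 0.101, adjusted p = 1.15e-05). Tiam1, an exchange factor for Rac, was lower as well (−1.06, adjusted p = 0.000896; 0.0529 without the 3 Gad2-rich libraries). Regulators of Ras and Rap had 8 higher and 3 lower of 38 (3 and 1 without the 3 Gad2-rich libraries), with Sipa1l3, a Rap inactivator, higher (1.80, adjusted p = 5.39e-05).

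Genes of the actin cytoskeleton had 16 higher and 8 lower of 102, and those of microtubules and neurofilaments 10 higher and 17 lower of 85 (11.8% and 20%). For microtubules the counts were 9 and 10 after the length correction and 9 and 8 after the GC correction, and 6 were higher without RSC replicate 2. The lower count for actin was 3 after the GC correction and 4 or 5 in each fit that left out NA replicate 3 or 1 PFC, RSC or VHN library other than PFC replicate 3. The counts without the 3 Gad2-rich libraries were 5 and 1 for actin and 3 and 4 for microtubules. Basp1, a growth-cone membrane protein, was higher (0.99, adjusted p = 0.000158). Tmsb4x, the actin-monomer binding thymosin beta 4, was lower (−0.52, adjusted p = 0.00179) but was at adjusted p = 0.964 after the length correction. Dpysl2, a tubulin-binding protein of growing axons, was at 731 ± 51 against 367 ± 37.5 CPM (SD, n = 6 each; 1.0, adjusted p = 1.09e-05). Stmn4, a stathmin, and Nefm, the medium neurofilament chain, were lower (−1.07 and −1.22, adjusted p = 0.000259 and 0.000553).

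Motor proteins move cargo along the cytoskeleton. Of 92 tested, 7 were called higher and 10 lower, or 1 and 2 without the 3 Gad2-rich libraries. The higher count was 4 without PFC replicate 2, VHN replicate 1 or VHN replicate 2, and the lower count 6 after the GC correction. Kif5a, a kinesin heavy chain of neurons, was at 491 ± 99.4 CPM on the NA/PFC side against 829 ± 71.2 CPM on the other (SD, n = 6 each; log2 fold change −0.78, adjusted p = 9.42e-05). Dynll2, a light chain shared by dynein and myosin V, was at 177, 386 and 172 CPM in NA, 130, 102 and 172 CPM in PFC and 485 to 582 CPM in RSC and VHN (−1.55, adjusted p = 5.28e-05). Its relative Dynll1 was at 326 to 554 CPM on the NA/PFC side against 287 to 320 CPM on the other (0.48, adjusted p = 0.00751; 0.189 without the 3 Gad2-rich libraries).

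Of 104 genes of synaptic vesicle release, 22 were called higher and 6 lower (21.2% and 5.77%), and the other 76 were not called (median log2 fold change 0.23 over the list). The level summed over 109 detected members overlapped between the sides, at 35677 to 55164 CPM in NA and PFC libraries and 37308 to 45671 CPM in the others. PFC over RSC had 15 higher and 11 lower, and the other single pairs 9 to 13 higher and 2 to 5 lower. The pairs also differed in calls over all 13916 tested genes. These were 679 higher and 679 lower for PFC over RSC and 483 and 328 for NA over RSC. They were 336 and 372 for PFC over VHN and 225 and 158 for NA over VHN. Differences between pairs are therefore not read as a trait of this list. There were 10 and 5 without the 3 Gad2-rich libraries. Without NA replicate 2 the lower count was 10. Syp, the vesicle membrane protein synaptophysin, was at 1796, 1784 and 1085 CPM in NA and 1802, 1651 and 1378 CPM in PFC, against 701, 554 and 419 CPM in RSC and 677, 724 and 603 CPM in VHN. The sides were separate (2.58-fold, log2 fold change 1.37, adjusted p = 1.38e-05). Vamp2, the vesicle SNARE that drives fusion, named after its values were seen, was at 1082 ± 128 against 507 ± 92.8 CPM (SD, n = 6 each; 1.10, adjusted p = 2.4e-05).

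Complexins, which clamp and release the SNARE machinery, differed between family members. Cplx2 was at 726, 561 and 697 CPM in NA and 807, 790 and 443 CPM in PFC, against 50, 98.5 and 88.2 CPM in RSC and 63.2, 195 and 218 CPM in VHN. No library of one side reached the other (5.65-fold, log2 fold change 2.58, SE 0.268, adjusted p = 1.09e-05). Cplx1, chosen after its values were seen, was lower at 326 ± 151 against 654 ± 142 CPM (SD, n = 6 each; −1.04, adjusted p = 0.000319), with NA replicate 2, at 615 CPM, among the RSC and VHN libraries.

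Synaptotagmins sense calcium for fusion, and Syt2, a fast sensor, had the widest log2 fold change after Igfbp5 among the 28 genes of lowest p. It was at 2.8, 3.97 and 6.31 CPM in NA and 3.64, 0.346 and 0.0938 CPM in PFC. It was at 691, 496 and 318 CPM in RSC and 356, 223 and 120 CPM in VHN. Its lowest RSC or VHN library was far above its highest NA or PFC library (128-fold between side means, log2 fold change −7.13, SE 0.55, adjusted p = 1.38e-06; 1.18e-06 without the 3 Gad2-rich libraries). Syt4, which acts on dense-core vesicles, was lower (−0.98, adjusted p = 0.000105).

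At the postsynapse, 12 of 56 scaffold genes were called higher and 6 lower, or 6 and 3 without the 3 Gad2-rich libraries. There were 7 higher without VHN replicate 1 and 10 lower without NA replicate 2. Sorbs2, an actin-linked adaptor, was higher (327 ± 110 against 116 ± 29.2 CPM, SD, n = 6 each; log2 fold change 1.5, adjusted p = 0.00018), as was Lrrc7, the density protein densin (0.80, adjusted p = 0.000393). Mpp3, a MAGUK scaffold, was at 2.11 to 12.4 CPM on the NA/PFC side against 23.3 to 66.3 CPM on the other (−3.32, adjusted p = 0.000217). In sorting and coat genes the counts were close to each other, 20 higher and 17 lower of 206, or 8 and 3 without the 3 Gad2-rich libraries. The higher count was 11 to 13 without PFC replicate 2, RSC replicate 2, RSC replicate 3 or VHN replicate 2. The lower count was 10 or 11 without NA, PFC, RSC or VHN replicate 1, RSC replicate 3 or VHN replicate 2, and 9 after the GC correction. Arf3 and Arf1, GTPases that recruit vesicle coats, were higher (1.26 and 1.09, adjusted p = 1.09e-05 and 2.28e-05), and Clta, a clathrin light chain, was lower (−1.69, adjusted p = 0.00138).

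**Figure D4:**
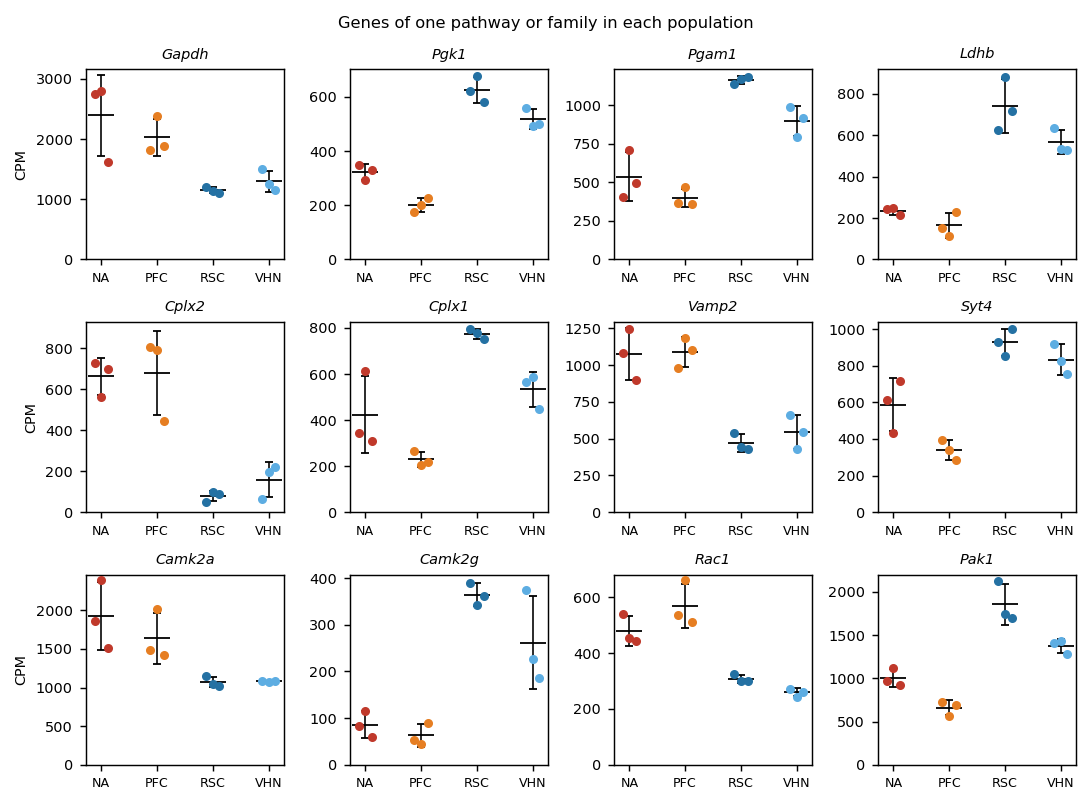
Level in CPM of 12 genes from glycolysis, vesicle release, calcium-calmodulin kinase and Rac signalling, with 1 point per library and mean ± SD (n = 3) per population. Within each row, genes of the same pathway or family lie higher in NA and PFC (Gapdh, Cplx2, Vamp2, Camk2a, Rac1) or lower (Pgk1, Pgam1, Ldhb, Cplx1, Syt4, Camk2g, Pak1).

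Of 109 genes of phospholipid and sphingolipid metabolism, 17 were called higher (15.6%) and 1 lower (0.917%), and without the 3 Gad2-rich libraries there were 5 and 1. DESeq2 called 23 and 6. There were 11 higher without PFC replicate 2 or VHN replicate 2, 4 lower without NA replicate 2, and 6 lower without NA replicate 2 and PFC replicate 3. Napepld, which makes N-acylethanolamines, was at 42.7 ± 24.8 against 6.79 ± 4.04 CPM (SD, n = 6 each; log2 fold change 2.57, adjusted p = 0.00164). Gal3st3, a galactose sulfotransferase that the list takes in by its symbol and whose action on lipids was not checked, was higher (1.65, adjusted p = 0.000199). The 1 lower gene was Cds1, which makes the CDP-diacylglycerol used for inositol lipids. It was at 118, 132 and 117 CPM in NA and 76.1, 40.5 and 94.5 CPM in PFC, and at 249 to 323 CPM in RSC and VHN (−1.62, adjusted p = 2.06e-05). Atp8a1, a flippase that moves phosphatidylserine to the inner membrane leaflet, was at 157 to 351 CPM on the NA/PFC side against 24.5 to 76.6 CPM on the other (2.54, adjusted p = 3.79e-06).

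Glycan and sulfate enzymes had 15 higher and 4 lower of 130, with 9 higher without the 3 Gad2-rich libraries. DESeq2 called 24 and 9. Chst11, which sulfates chondroitin of the extracellular matrix, was at 57.6 to 151 CPM on the NA/PFC side against 0.635 to 13.2 CPM on the other (11.1-fold, log2 fold change 3.48, adjusted p = 0.000225). Copines, annexins and S100 proteins, which bind calcium and membranes, had 7 of 16 called higher (43.8%), and 3 without the 3 Gad2-rich libraries. Cpne7 was at 121 to 316 CPM against 7.33 to 67 CPM (2.96, adjusted p = 2.14e-05). Cpne6 was higher as a side (0.78, adjusted p = 0.00171), but it was at 165 to 249 CPM in NA, 541 to 647 CPM in PFC and 165 to 270 CPM in RSC and VHN, so PFC carried its difference (NA over PFC −1.45, adjusted p = 0.00684).

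Insulin-like growth factor binding proteins sequester IGF outside the cell. Igfbp5 was at 3.29, 4.29 and 0.156 CPM in NA and 4.16, 1.8 and 0 CPM in PFC, against 287, 249 and 595 CPM in RSC and 471, 412 and 203 CPM in VHN. The sides were far apart (162-fold between means, log2 fold change −7.38, SE 0.675, adjusted p = 3.79e-06). Igfbp4 was at 1.3 to 13.9 CPM on the NA/PFC side against 44.4 to 211 CPM on the other (19.3-fold, −4.29, adjusted p = 1.15e-05). Ptn, the secreted growth factor pleiotrophin, was at 168 to 204 CPM on the NA/PFC side against 29.3 to 120 CPM on the other (1.57, adjusted p = 0.000324). The list as a whole had 8 higher and 10 lower of 64, and 6 and 6 without the 3 Gad2-rich libraries.

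Wnt genes had 11 higher and 2 lower of 57 (19.3% and 3.51%), but 2 and 2 without the 3 Gad2-rich libraries. The higher count was 5 to 7 without PFC replicate 1, VHN replicate 2 or any 1 of the RSC libraries. Dkk3, a secreted protein of the Dickkopf family, was lower at 1439, 1117 and 1162 CPM in NA and 538, 722 and 564 CPM in PFC, against 1424 to 2002 CPM in RSC and VHN (log2 fold change −1.01, adjusted p = 1.42e-05). PFC lay below NA for this gene (NA over PFC 1.03, adjusted p = 0.00696), and NA replicate 1 overlapped VHN. The Wnt ligand gene Wnt7b was higher (5.04, adjusted p = 0.00964), with a low and uneven level of 0.107 to 25.6 CPM in NA and PFC, and was at adjusted p = 0.118 without those 3 libraries. TGF-beta and BMP genes had 8 higher and 2 lower of 48, and 4 and 1 without the 3 Gad2-rich libraries. DESeq2 called 15 higher. Bmper, a secreted BMP regulator, was at no more than 0.938 CPM on the NA/PFC side against 8.63 to 37.5 CPM on the other (−5.86, adjusted p = 0.000105).

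Chromatin regulators had 9 higher and 6 lower of 185 (8.11% together), and RNA-binding and splicing genes 11 and 11 of 218. The counts without the 3 Gad2-rich libraries were 5 and 2 and 3 and 1. Chromatin regulators had 5 higher without VHN replicate 1 or 2, and DESeq2 called 14 and 10. RNA-binding genes had 6 lower without RSC replicate 3 or VHN replicate 3, 7 without RSC replicate 2 or after the length correction, and 17 without NA replicate 2, and DESeq2 called 18 and 17. Without NA replicate 2 and PFC replicate 3 there were 11 and 22 lower in these lists, where 8.69% of all genes were. Hdac9, a class IIa histone deacetylase, was at 143 to 270 CPM on the NA/PFC side against 22.8 to 80.8 CPM on the other (log2 fold change 2.41, adjusted p = 2.33e-05). Cbx6, a Polycomb subunit, was at 694 to 1192 CPM against 195 to 363 CPM (1.73, adjusted p = 3.79e-06). Celf3, a splicing regulator of neurons, and Rbfox1, another, were higher (1.88 and 0.82, adjusted p = 5.39e-05 and 0.000554).

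The clock genes had 4 higher and 2 lower of 22, and 1 and 1 without the 3 Gad2-rich libraries. Without PFC replicate 1, PFC replicate 2 or VHN replicate 2 there were 2 higher. Per3, a repressor of the clock, was at 21.8 to 82.2 CPM on the NA/PFC side against 0.115 to 9.86 CPM on the other (log2 fold change 3.65, adjusted p = 0.00312). Hlf, a clock-output transcription factor, was at 560, 298 and 503 CPM in NA, 405, 181 and 363 CPM in PFC, 974, 904 and 1041 CPM in RSC and 1143, 850 and 744 CPM in VHN. Its sides were separate (−1.31, adjusted p = 0.000234). Time of tissue collection is not given in the sources used here. Immediate early genes, induced by activity, had 7 of 27 called higher and 3 lower, and 5 and 3 without the 3 Gad2-rich libraries. Bdnf, a neurotrophin, was at 28.6 to 122 CPM against 0.387 to 22.4 CPM (3.59, adjusted p = 0.00198), whereas Nr4a2 was lower (−1.05, adjusted p = 0.000297).

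Among the 28 genes of lowest p, several sit in none of the pathways above. Ctxn1, a small neuronal membrane protein, was at 633, 474 and 385 CPM in NA and 789, 800 and 790 CPM in PFC, against 164, 170 and 137 CPM in RSC and 181, 268 and 227 CPM in VHN (3.37-fold, log2 fold change 1.74, SE 0.144, adjusted p = 2.04e-06). Phyhip, Gpm6b and Gas7 were also higher (2.36, 1.67 and 1.37), the second a myelin-proteolipid relative of the neuronal membrane. Cdr1 was higher on the side as a whole (1.68, adjusted p = 5.14e-06), with 2472 to 3576 CPM in NA, 1084 to 1344 CPM in PFC and 354 to 765 CPM in RSC and VHN, and NA was above PFC (1.37, adjusted p = 0.0129). The counts of Cdr1 cannot tell linear from circular or antisense RNA of its locus.

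Lower in NA and PFC were Dpy19l1, a relative of protein mannosyltransferases (−2.30, adjusted p = 1.9e-06), Nrip3 (−1.69), Lxn, the carboxypeptidase inhibitor latexin (−1.88), and Rangap1, which drives nuclear transport (−1.35). Dpy19l1 was at 50.1 to 94.7 CPM on the NA/PFC side against 266 to 446 CPM on the other. Rangap1 was at 142 to 181 CPM against 363 to 475 CPM. Each of the 28 genes had separate sides by the naming rule, and each passed under all 24 settings run on it, which include the 12 fits that leave out 1 library. They were chosen by their low p over these same libraries, so passing in the refits is no independent check. The mouse Lars2 locus, first in rank, is known to overlap a sequence resembling ribosomal RNA, and the origin of its fragments was not tested.

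**Figure D5:**
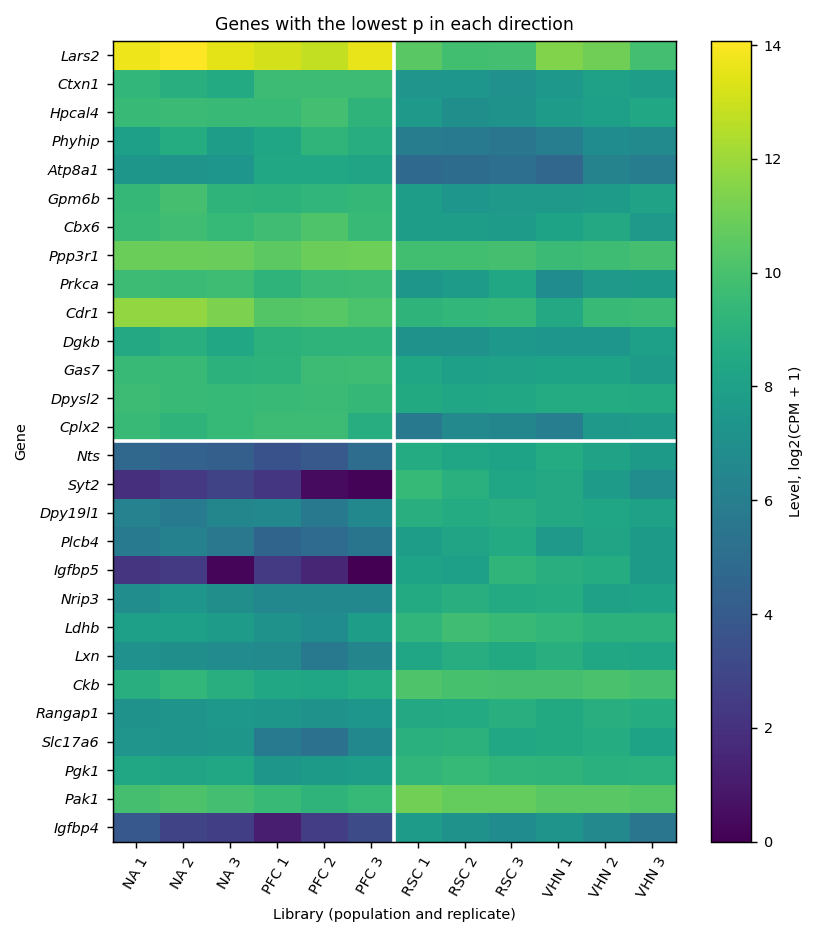
Level of the 28 genes with the lowest p, 14 higher (above the white line) and 14 lower in NA and PFC, as log2(CPM + 1) by library, with the sides divided by the vertical white line. Syt2, Igfbp5 and Igfbp4 show the deepest steps between the sides, and Cdr1 is brightest in the NA libraries.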

How the data were processed

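Gene-level values came from a Cuffdiff read-group tracking table in which the authors deposited expected counts of fragments, not normalized, for each gene and replicate, per the file headers. The build was mm9, per the submitters' processing notes; aligner, annotation, strand use and treatment of multiply mapped reads are not given in the sources used here. Of expected counts above 0, 8.51% were not whole, and all were rounded. The table's 92 spike-in rows held 0 fragments and were left out, which left 37607 gene rows, 87.5% with a symbol from GENCODE names matched by identifier. Replicates are counted from 0 in the table and from 1 in the labels, and matching them in order serves to name libraries. Depth was 10777273 to 20904126 fragments per library, and 178 entries with status FAIL were kept.

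Genes were filtered with filterByExpr (smallest count 10), scaled by TMM and fitted with edgeR 4.0.16 (glmQLFit, glmQLFTest; R 4.3.3) over all 12 libraries, with a common biological coefficient of variation of 0.736 and 8 residual degrees of freedom. P-values were adjusted by Benjamini-Hochberg over all 13916 genes. Alternatives used DESeq2 1.42.0 and limma 3.58.1, other scalings and filters, a fold threshold, a replicate block and left-out libraries; lowess corrections (span 0.3) for transcript length and GC, which covered 95.5% of tested genes, were added after seeing the data. On simulated counts for 13559 genes, edgeR recovered 16, 23, 35 and 47 of 50 genes changed 2, 4, 8 and 16-fold, with 11 false calls.

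Members and lists were chosen with earlier results of these data known, so lists are described by counts and medians and were given no test of their own. Named genes are the 14 of lowest p in each direction (called, at least 10 CPM on the higher side, sides not overlapping, outside channel, receptor, adhesion, guidance and matrix families), and up to 2 called members per direction of each list. Others are marked as chosen after their values were seen. There were 51 functional lists, beside 1 that is not reported here, and 11 lists of cell type markers, whose interneuron, astrocyte, oligodendrocyte and vessel results are in the text; microglia (4.72 to 38.3 against 4.32 to 24 CPM summed), precursor and blood markers were low, and CA1 markers had 4 called higher and 1 lower of 9, CA3 and CA2 markers 2 and 1 of 9, dentate markers 1 and 1 of 4 and pyramidal markers 4 and 1 of 10. RefSeq promoters are of build GRCm38.p6, not the authors' build, and were matched by symbol. For 40 of 45 promoter rows of called respiratory genes, bases just after the start lay in the first part of a GENCODE transcript of the same symbol. This check does not fix the exact start.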

Additional observations from a re-analysis of the deposited data

Results flagged for a closer look

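A sample was flagged when, among the 6 libraries of a side, its gap to the nearest other exceeded Dixon's critical share of the range on log2(CPM + 1). Of 182 groups examined, 9 were flagged, while chance flags about 1 in 20. The mean level of the calcium-calmodulin kinase list was 6.70 in RSC replicate 1, and 6.55 to 6.61 in the other RSC and VHN libraries. That of mitochondrial dynamics and import was 4.22 in PFC replicate 3 and 4.43 to 4.53 in the other NA and PFC libraries. NA replicate 2 lay low for glycan and sulfate enzymes (3.65, others 3.90 to 4.04) and for GPI anchor genes (2.63, others 3.61 to 3.96), and high for Gpm6b (9.92, others 9.11 to 9.37). PFC replicate 3 stood out for oligodendrocyte precursor markers (0.64, others 0.00 to 0.04) and VHN replicate 1 for CA1 markers (4.97, others 5.29 to 5.43). PFC replicate 1 was low for Ppp3r1 (10.55, others 10.83 to 10.97) and Prkca (9.15, others 9.59 to 9.72), yet above all RSC and VHN libraries for both genes.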

How the results depend on the processing

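Over all libraries 1982 genes were called, 1055 higher and 927 lower. The number was 746 (433 and 313) without RSC replicates 2 and 3 and VHN replicate 3, and 1273 (670 and 603) when the log2 fold change also had to reach 1 in size. Leaving out single libraries gave 1488 (without VHN replicate 2) to 2176 (without NA replicate 2) calls. Other scalings, filters, tools and corrections stayed within 1.5 times, with DESeq2 at 2740. The replicate block gave 1803 calls (948 and 855). Deviations of same-numbered libraries from their population means had a mean r of −0.00953 (−0.0449 to 0.0303 over 18 pairs). The mean r was 0.00488 for the other pairs across populations. With 3 libraries per population and an assumed replicate order, this check cannot tell whether same-numbered libraries share animals or preparations. No direction of the 200 named genes reversed, and 130 passed in every setting. Without the 3 libraries above, a fit with fewer samples, 64 were not called. The named genes were chosen as called over all libraries, so their kept directions in refits of these libraries are no independent check. Fold changes of genes near 0 CPM on one side are imprecise.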
